A study of Mus musculus with 12 samples.

Results

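Mouse bone marrow cells labelled as hematopoietic stem and progenitor cells (HSPC) were transfected with miR499, and gene expression was compared with that of cells given a control miR. All cells were wild type (WT) and gave RNA 2 days after transfection, and the label calls it total RNA from sorted cells. The comparison held 6 of the series' 12 libraries, miR499 1 to 3 and controls 4 to 6 (n = 3 each), which stand in 1 deposited table. A gene was tested if its mean over the 6 libraries was at least 1 RPKM, a unit that scales a gene's reads to its length and to the library's total. That rule kept 9815 of 48709 listed genes, of which 19742 were above 0 in at least 1 of the 6 libraries. Abl2 lay just inside this limit, and Gm26860 just outside it at a mean of 0.9998 RPKM. The labels give neither the age nor the sex of the mice, nor the arm, dose or chemical form of the transfected miR499. Nothing states whether the replicates are different mice or different cultures, and the p-values therefore cover no more than the scatter of these libraries, which could be technical. The treatment label of the miR499 libraries reads miR499, whereas their free-text description calls it a control miR499, and the treatment label was followed.

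MicroRNAs are short RNAs that guide Argonaute proteins to messenger RNAs, mainly through pairing between a short seed near the miRNA's start and a matching site in the 3' untranslated region (3' UTR). The bound messenger RNA is destabilised or translated less. MiR-499 is encoded in an intron of the myosin gene Myh7b and is best known from heart and slow skeletal muscle, where its described targets include calcineurin subunits and Pdcd4. HSPC give rise to all blood lineages, and Kit, Cd34 and Cd48 are among the surface proteins used to sort them and their early progeny.

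The mature sequence is shown first because the search for sites rests on its seed, bases 2 to 8, written in capitals. RefSeq places it on GRCm38.p6 at chr2:155622893-155622913, plus strand, and 0 other mature mouse miRNAs in that table shared its seed.
miR-499-5p: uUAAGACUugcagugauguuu
Sites were looked for on the sense strand of the longest annotated 3' UTR of each gene (GENCODE M21, GRCm38, the assembly of mm10). The 8mer is AGTCTTAA, the 7mer-m8 is AGTCTTA and the 7mer-A1 is GTCTTAA. Both 7mers lie within the 8mer, so each gene was counted under its longest site. Of 9086 tested genes with an annotated 3' UTR, 1542 (17%) held a site, 360 (3.96%) an 8mer, 588 (6.47%) a 7mer-m8 and 594 (6.54%) a 7mer-A1. The next 6 sites are those of 3 published targets and of 3 genes that changed in all miR499 libraries, with the match in capitals.
Pdcd4, 7mer-m8, chr19:53929149-53929178, plus strand: gcaactcttacAGTCTTAggtgttaccaag
Fnip1, 7mer-A1, chr11:54517936-54517965, plus strand: tttattaatatGTCTTAAttttgaatttga
Ppp3ca, 8mer, chr3:136935763-136935792, plus strand: ctgaattaggcAGTCTTAAaaaaaaaaaaa
Spns2, 8mer, chr11:72451685-72451714, minus strand: gtgaatctcaaAGTCTTAAgagagaagcca
Hdac2, 7mer-m8, chr10:36994222-36994251, plus strand: ttagttccccaAGTCTTAcatgttatcata
Dld, 7mer-A1, chr12:31331557-31331586, minus strand: aaaataaacatGTCTTAAatattaatttac

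Library totals recovered from the RPKM values were 41793603 to 44273264 reads with miR499 and 31990355 to 45552326 reads in controls, at which 3 reads in a gene of 2000 bases make 0.0329 to 0.0469 RPKM. All 8 HSPC markers were detected in every library. Kit stood at 14.1, 10.7 and 34.3 RPKM in miR499 1 to 3, against 8.17 to 9.24 RPKM in controls, and Cd34 at 60.1, 53.6 and 91.1 RPKM, against 82.4 to 85.7 RPKM. Cd48 was below every control in all 3, at 270, 288 and 167 RPKM, against 304 to 336 RPKM. Ly6a stood at 52.6, 51.3 and 29.7 RPKM, against 38.6 to 91.0 RPKM, and Flt3 at 14.6, 16.0 and 14.9 RPKM, against 13.6 to 16.8 RPKM. Myb stood at 69.9, 59.6 and 78.6 RPKM, against 59.8 to 66.8 RPKM, and Meis1 at 4.13, 3.29 and 7.11 RPKM, against 4.06 to 4.24 RPKM. Gata2 is given below. Mir499 was listed at 0 in all 6 libraries and Myh7b reached at most 0.0361 RPKM, in miR499 3. A transfected short RNA need not appear in those entries, so they do not check the labels. The library miR499 3 stood apart from the others. Its counts differed from those of miR499 1 and 2 by a chi-square of 432 and 571 per degree of freedom, against 51.8 between miR499 1 and 2 and 12.02 to 21.2 between controls. The sum of its RPKM values was 391857, while the other 5 libraries had sums of 465018 to 483368. An unexplained tag stands in the description of each of controls 4 to 6 and of 0 miR499 libraries. If it marks a batch, batch and treatment cannot be told apart.

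With miR499 3 kept, 0 of 9815 genes (0.0%) passed limma's test at an adjusted p under 0.05, and limma voom on recovered reads also passed 0. An unadjusted p under 0.05 was reached by 992 genes (10.1%) with limma and 967 with voom. The groups did not overlap in 2374 genes (24.2%), with miR499 above all 3 controls in 1120 (11.4%) and below all of them in 1254 (12.8%), and log2 changes were positive in 49.1% and negative in 50.9% of genes. An exact test of 3 against 3 libraries cannot give a p below 0.1, so the tests borrow their spread from all genes through limma. Without miR499 3, 1681 genes (17.1%) passed, 341 higher (3.47%) and 1340 lower (13.7%) with miR499, and 3560 had an unadjusted p under 0.05. Log2 changes were positive in 41.3% and negative in 58.7% of genes, and both miR499 libraries lay above all controls in 1754 (17.9%) and below them in 3348 (34.1%). Rescaling the libraries by median ratios gave 1230 calls (12.5%) split more evenly, 586 higher (5.97%) and 644 lower (6.56%), and 985 genes passed both ways in the same direction, 341 higher and 644 lower. With a trend in gene length and GC content removed, 1088 of 9526 genes passed (11.4%), 466 higher (4.89%) and 622 lower (6.53%). The median 95% interval of a log2 change was ± 0.45 with all 6 libraries and ± 0.24 without miR499 3.

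The count of calls leaned on single libraries. On top of miR499 3, leaving out control 4 left 339 calls, leaving out control 6 left 188, and leaving out miR499 2 gave 3310 from the lone miR499 1. Leaving out control 5 left 2 calls, although 2721 genes still had an unadjusted p under 0.05. These 2 genes are named after their values were seen. Gm44170, an antisense gene on chromosome 6, stood at 18.7, 13.7 and 0 RPKM in miR499 1 to 3, against 0.692, 1.24 and 1.196 RPKM in controls 4 to 6. Gm17122, an antisense gene on chromosome 5, stood at 5.32, 3.04 and 0 RPKM in miR499 1 to 3 and at 0 in every control. It reached the limit of 1 RPKM through miR499 1 and 2 alone, so its place among the tested genes rests on the libraries where it is high. Both were high in 2 miR499 libraries and undetected in miR499 3, so neither change was shared by all 3.

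MiR499 3 was not used in the fit without it and can be set beside its calls. Of the 341 genes that rose, miR499 3 lay above all 3 controls in 215 (63.0%), among the controls in 30 and below them in 96 (28.2%). Of the 1340 that fell, it lay below all 3 controls in 514 (38.4%), among them in 130 and above them in 696 (51.9%). Over all tested genes it lay above all controls in 55.7% and below all of them in 35.1%. Both shares in the called direction were thus only somewhat above those of all tested genes. The same controls stand behind the calls and these positions, so the shares are a description.

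**Figure D1:**
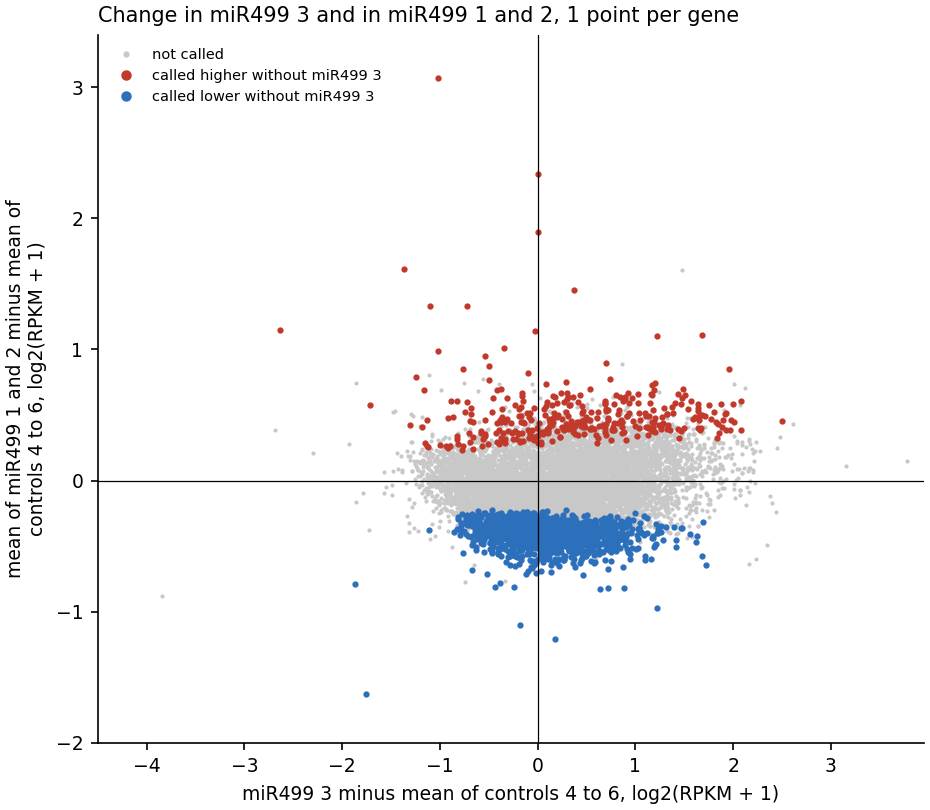
Each point is 1 of 9815 genes, with its difference from the mean of controls 4 to 6 in miR499 3 on the horizontal axis and averaged over miR499 1 and 2 on the vertical axis, in log2(RPKM + 1). The 341 genes called higher (red) and the 1340 called lower (blue) without miR499 3 spread to both sides of 0 along the horizontal axis, so miR499 3 moved with the other libraries in some called genes and against them in others.

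Changes shared by all 3 miR499 libraries were counted as those that passed without miR499 3 and in which miR499 3 also lay beyond all 3 controls on the same side. There were 729 (7.43%), 215 higher (2.19%) and 514 lower (5.24%). Requiring a pass under both scalings kept 424 (4.32%), with the same 215 higher and 209 lower (2.13%). Of these, 161 higher and 130 lower genes also passed with the trend in gene length and GC content removed. In all these counts the position of miR499 3 was read from the deposited values. With median-ratio scaling of both the calls and that position, 660 changes were shared, 329 higher and 331 lower. The 215 rose by 0.29 to 1.45 on the log2(RPKM + 1) scale (median 0.46), and 3 of them changed by at least 1 log2 unit. The 209 had log2 changes of -0.35 to -1.63 (median -0.44), and 2 changed by at least 1. The shared higher genes were longer, lower in level and richer in GC than the shared lower ones, with medians of 4959 and 2771 bases, 4.37 and 23.4 RPKM, and 54.4% and 45.5% GC. Over all tested genes these medians were 3597 bases, 7.19 RPKM and 49.2% GC. Membership rests in part on miR499 3, whose median difference from controls 4 to 6 itself varied with these properties. It ran from -0.41 to 0.45 with gene length and from -0.05 to 0.52 with GC content. By level it was 0.43 at 1 to 5 RPKM and -0.58 at 100 to 1000 RPKM. The part of this selection in the contrast was not tested. Leaving out control 4, control 6 or miR499 2 changed the 729 to 128, 64 and 2122, and without control 5 there were 0.

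Hdac7 was among the 3 shared genes that rose by at least 1 log2 unit. Its product is a histone deacetylase of class IIa, and the gene lies on the minus strand of chromosome 15 (97792664 to 97844502). Its levels were 4.35, 6.10 and 5.66 RPKM in miR499 1 to 3, against 1.98, 2.02 and 1.61 RPKM in controls 4 to 6. All miR499 libraries lay above all controls, which the choice of shared genes nearly fixes. The log2 change without miR499 3 was 1.11 ± 0.14 (SE, adjusted p = 0.00937, limma). Controls 1 to 3 of the other table held 4.65, 4.77 and 4.11 RPKM, a level like that of the miR499 libraries rather than of controls 4 to 6. Lyl1, a basic helix-loop-helix transcription factor of stem cells and progenitors (chromosome 8, 84701457 to 84704715, plus strand), stood at 15.2, 10.7 and 12.4 RPKM with miR499, against 7.54, 6.29 and 7.33 RPKM in controls. It rose by 0.78 ± 0.14 (SE, adjusted p = 0.0137, limma), and controls 1 to 3 held 8.33 to 10.05 RPKM. Sap25, a subunit of the Sin3 deacetylase complex (chromosome 5, 137641334 to 137642902, plus strand), stood at 10.3, 9.23 and 8.37 RPKM with miR499, against 4.59, 5.39 and 4.42 RPKM in controls. It rose by 0.90 ± 0.11 (SE, adjusted p = 0.00937, limma), and in the other table it ran from 2.70 to 4.82 RPKM, below every miR499 library.

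Ppp2cb, a catalytic subunit of protein phosphatase 2A, stood at 22.4, 14.6 and 25.1 RPKM with miR499 and at 9.86, 11.9 and 9.98 RPKM in controls. Slc25a28, the mitochondrial iron importer mitoferrin 2, stood at 9.43, 7.92 and 11.4 RPKM with miR499 and at 5.004, 5.57 and 4.79 RPKM in controls. Spns2, an exporter of sphingosine 1-phosphate whose 3' UTR carries the 8mer shown above, stood at 10.9, 8.13 and 14.0 RPKM with miR499 and at 6.04, 5.48 and 5.38 RPKM in controls. In each of these 3 genes the groups did not overlap, again nearly fixed by the choice of genes, and miR499 2 was the lowest miR499 library. Wasf2, which builds branched actin, Zmiz2, a transcriptional coregulator, the kinase Mast3 and the ubiquitin ligase Dtx3l rose by 0.65, 0.69, 0.66 and 0.67 on the same scale. Mir142hg, the host transcript of the blood-cell miRNA miR-142, rose by 0.75 ± 0.11 (SE) but did not pass once the trend with gene length and GC content was removed. The noncoding gene Gm26917 stood at 117, 75.1 and 141 RPKM with miR499 and at 47.0, 42.0 and 40.5 RPKM in controls. The ribosomal RNA entry Rn18s-rs5 had the same order of libraries, 63.1, 43.6 and 114 RPKM with miR499 and 31.0, 28.8 and 26.4 RPKM in controls, and the part of leftover ribosomal RNA in either change was not tested.

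**Figure D2:**
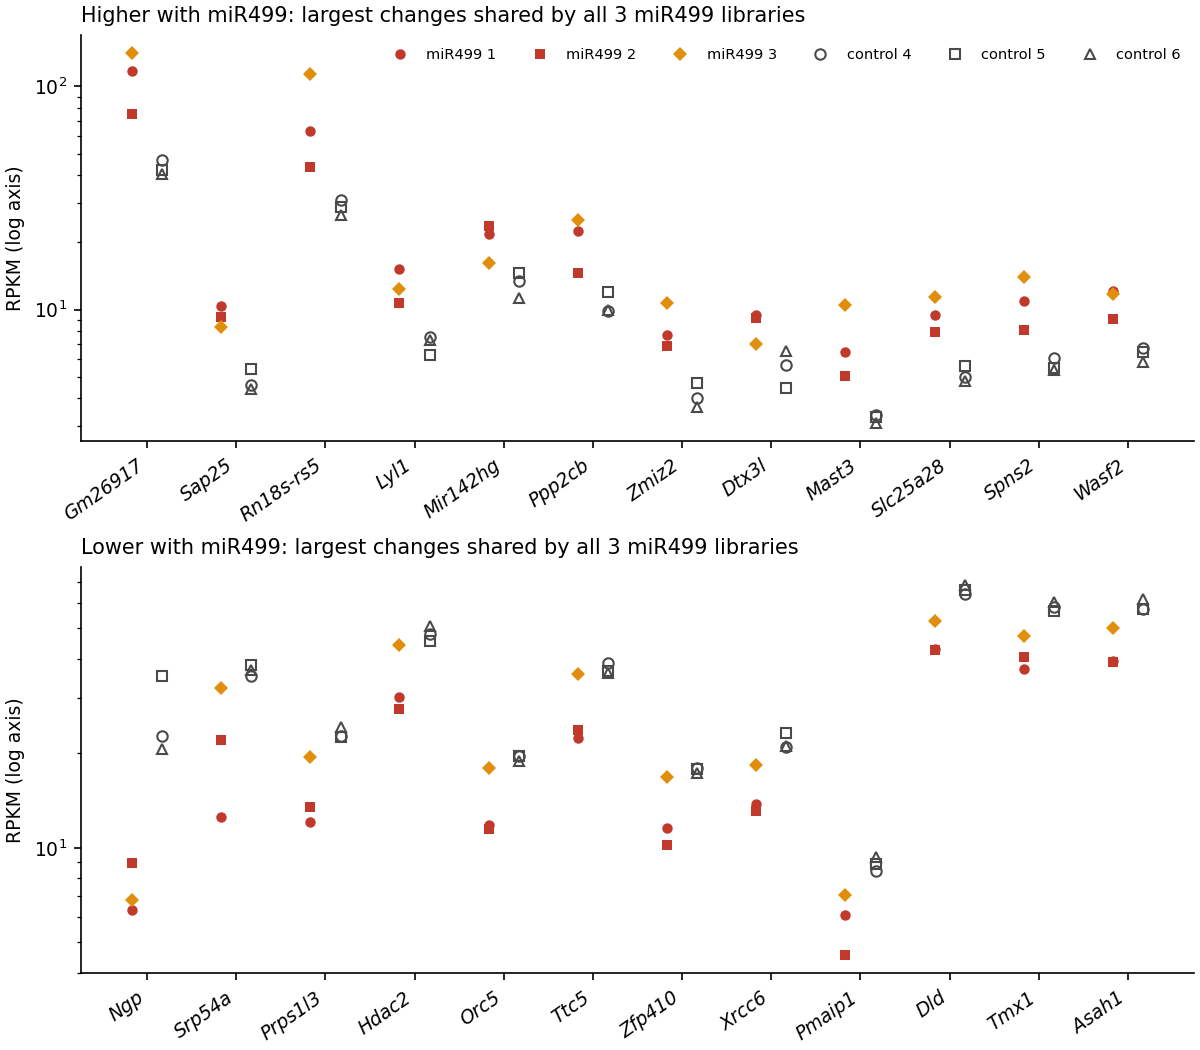
RPKM on a log axis of the 12 higher and 12 lower genes with the largest shared changes at a mean of 5 RPKM or more, in 1 panel each, 1 point per library, miR499 1 to 3 left of controls 4 to 6 (open symbols). In every gene all 3 miR499 libraries lie on 1 side of the 3 controls, which the choice of these genes nearly fixes. Over all tested genes the groups did not overlap in 24.2%. In many of the lower genes, such as Hdac2, Orc5, Xrcc6, Dld and Srp54a, miR499 3 lies nearer to the controls than miR499 1 and 2 do.

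Among the shared genes that fell, Ngp changed most. It encodes neutrophilic granule protein (chromosome 9, 110419747 to 110423012, plus strand), made by neutrophil precursors. It stood at 6.32, 8.96 and 6.81 RPKM with miR499, against 22.6, 35.2 and 20.6 RPKM in controls, with a log2 change of -1.63 ± 0.21 (SE, adjusted p = 0.00937, limma). The groups did not overlap, which the choice of shared genes nearly fixes. In the other table Ngp ran from 4.39 to 9.92 RPKM in controls 1 to 3, also below controls 4 to 6. Of 17 tested late neutrophil genes 0 rose and 4 fell, Ngp, Anxa1, Ltb4r1 and Mmp8, the last named after its values were seen, beside the 13.7% of all tested genes that fell. The summed level of the 27 listed markers was 1149 to 1825 RPKM with miR499, against 798 to 1207 RPKM in controls, and Stfa2, Stfa3 and BC100530 were at 0 in all 6 libraries. In such bulk RNA, fewer cells of a type and less RNA per cell cannot be told apart.

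Hdac2, a class I histone deacetylase (chromosome 10, 36974544 to 37001889, plus strand) whose 3' UTR carries the 7mer-m8 shown above, stood at 30.2, 27.6 and 44.3 RPKM with miR499, against 48.0, 45.4 and 50.7 RPKM in controls. It fell by 0.71 ± 0.08 (SE, adjusted p = 0.00937, limma), with miR499 3 only just below the lowest control. In the other table it stayed between 45.8 and 52.2 RPKM in all 6 libraries. Xrcc6, the Ku70 subunit of DNA end joining, stood at 13.8, 13.1 and 18.4 RPKM with miR499 and at 20.9, 23.2 and 21.01 RPKM in controls. Dld, the dihydrolipoamide dehydrogenase of mitochondrial dehydrogenase complexes, whose 7mer-A1 is shown above, stood at 42.8, 42.5 and 52.8 RPKM with miR499 and at 64.3, 66.1 and 68.5 RPKM in controls. Their log2 changes were -0.65 ± 0.08 and -0.62 ± 0.07 (SE). In the other table Dld ran from 60.3 to 67.3 RPKM and Xrcc6 from 20.7 to 24.0 RPKM, near the level of controls 4 to 6.

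The other named genes of the shared lower set follow. Orc5, of the origin recognition complex, Tmx1, a thioredoxin-related membrane protein of the endoplasmic reticulum, and Asah1, the lysosomal acid ceramidase, had log2 changes of -0.69, -0.58 and -0.58. Ttc5, a cofactor in stress-dependent transcription, and Zfp410, a zinc finger transcription factor, had log2 changes of -0.67 and -0.66. Pmaip1, which encodes the proapoptotic protein Noxa, stood at 6.13, 4.56 and 7.08 RPKM with miR499 and at 8.41, 8.87 and 9.32 RPKM in controls, and did not pass once the trend with gene length and GC content was removed. Srp54a, of the signal recognition particle, stood at 12.5, 22.0 and 32.2 RPKM with miR499 and at 35.3, 38.1 and 36.8 RPKM in controls. Srp54a and Prps1l3 have close copies in the mouse genome, so reads of theirs may have been split between entries.

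Genes of cell division stood lower in miR499 1 and 2. Of 40 tested genes of DNA replication and S phase, 16 fell and 0 rose without miR499 3, with a median log2 change of -0.23. Over all tested genes the median was -0.06, and 13.7% fell and 3.47% rose. With median-ratio scaling 8 fell, at a median of -0.15. Fen1, the flap endonuclease of lagging strand synthesis, stood at 48.4, 56.5 and 83.5 RPKM with miR499, against 79.0, 75.7 and 74.6 RPKM in controls. Mcm6, of the replicative helicase, stood at 52.6, 48.3 and 127 RPKM with miR499 and at 67.4, 67.2 and 68.9 RPKM in controls. In both genes miR499 1 and 2 were below every control and miR499 3 was above them. Ccne2, the cyclin E2 of S phase entry, was the exception among the 3 named, at 11.6, 12.3 and 10.5 RPKM with miR499 and 16.6, 16.4 and 17.1 RPKM in controls, a shared fall of 0.45 ± 0.08 (SE, adjusted p = 0.0120, limma). Over the list 6 of the 40 genes had a shared fall, beside 5.24% of all tested genes.

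Of 36 mitosis and G2/M genes, 14 fell and 0 rose, beside 13.7% and 3.47% of all tested genes, with a median of -0.26, and 8 fell and 1 rose with median-ratio scaling. The mitotic kinase Aurkb stood at 39.2, 34.7 and 56.6 RPKM with miR499, against 53.6, 57.9 and 57.4 RPKM in controls. Plk1, another mitotic kinase, stood at 28.2, 26.0 and 57.3 RPKM with miR499 and at 36.8, 42.1 and 40.0 RPKM in controls, so miR499 3 was the highest library. Bub3, of the spindle checkpoint, fell in all 3, at 34.3, 33.4 and 39.3 RPKM with miR499 and 44.7, 46.2 and 46.3 RPKM in controls. In single libraries, the median of the list was -0.22 and -0.29 in miR499 1 and 2 and 0.19 in miR499 3, relative to the controls' mean. Of 12 G1 cyclins and kinases 2 rose and 4 fell (2 and 2 with median-ratio scaling), and of 13 cell cycle inhibitors 1 rose, Cdkn1b, and 1 fell, Hbp1.

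The stem and progenitor list moved in both directions. Of 27 tested genes 3 rose, Lyl1, Gata2 and the receptor gene Kit given above, and 2 fell, with a median of 0.05. Over all tested genes 3.47% rose and 13.7% fell. All 3 rises were shared, beside 63.0% of all 341 called rises. Gata2, a transcription factor of stem cells and mast cells, stood at 32.3, 34.8 and 51.1 RPKM with miR499, against 27.8, 25.1 and 27.6 RPKM in controls, and rose by 0.31 ± 0.08 (SE, adjusted p = 0.0328, limma), without a pass once the trend in gene length and GC content was removed. Cd34, a surface sialomucin of progenitors, fell by 0.56 ± 0.07 (SE, adjusted p = 0.00937, limma) in miR499 1 and 2, while miR499 3 at 91.1 RPKM was above every control. Gfi1b, a repressor of erythroid and megakaryocyte progenitors, had 18.9, 21.03 and 35.5 RPKM with miR499 and 28.3, 28.0 and 29.9 RPKM in controls, again with miR499 3 on the other side.

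Histone deacetylases split by member. Of 14 tested, Hdac7 rose, and Hdac1, Hdac2 and Hdac3, the last named after its values were seen, fell, with a median of -0.18. Over all tested genes 3.47% rose and 13.7% fell, at a median of -0.06. Hdac1, the close partner of Hdac2 in corepressor complexes, stood at 33.9, 37.0 and 52.1 RPKM with miR499 and at 50.8, 50.5 and 49.6 RPKM in controls, so its fall of 0.49 ± 0.07 (SE) in miR499 1 and 2 did not extend to miR499 3. Of 9 HMG chromatin protein genes 1 fell, Hmgb3, at 110, 115 and 104 RPKM with miR499 and 164, 153 and 153 RPKM in controls. All 8 annexins, calcium-dependent membrane-binding proteins, had negative changes without miR499 3, beside 58.7% of all tested genes. Anxa1 and Anxa5 fell in all 3 libraries, beside 5.24% of all tested genes. Anxa1 did not pass once the trend in gene length and GC content was removed. Anxa5 stood at 151, 159 and 158 RPKM with miR499 and at 217, 233 and 219 RPKM in controls. That the groups did not overlap is nearly fixed by the choice of shared genes. In the other table it ran from 160 to 177 RPKM in both groups.

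Interferon-stimulated genes were mostly higher in miR499 1 and 2 and lower in miR499 3. All 43 members were tested, 35 had positive changes without miR499 3, 8 rose and 0 fell, with a median of 0.31. Over all tested genes 41.3% had positive changes, 3.47% rose and 13.7% fell, at a median of -0.06. Parp14, an interferon-induced ADP-ribosyltransferase, stood at 5.76, 6.08 and 2.59 RPKM with miR499 and at 3.28, 3.14 and 4.06 RPKM in controls. In this gene miR499 3 was the lowest library and miR499 1 and 2 were the highest. Stat2, a transcription factor of interferon signalling, was shared, at 5.24, 4.01 and 9.03 RPKM with miR499 and 2.26, 2.38 and 3.29 RPKM in controls, and it ran from 13.1 to 25.7 RPKM in the other table. Relative to the controls' mean the list medians were 0.14, 0.29 and -0.28 in miR499 1 to 3, against 0.02, -0.30 and 0.35 in controls 4 to 6, so the controls themselves were spread as widely. Of 16 NF-kappaB and inflammatory genes 2 rose, Cxcl10 and Rel. Cxcl10, an interferon-induced chemokine, had 42.2, 32.2 and 3.81 RPKM with miR499 and 10.5, 8.68 and 16.1 RPKM in controls, so the change of 1.61 ± 0.21 (SE, adjusted p = 0.00937, limma) was absent in miR499 3. Rel, an NF-kappaB subunit, rose in all 3, at 2.47, 2.21 and 2.48 RPKM with miR499 and 1.64, 1.66 and 1.57 RPKM in controls. Of 15 AP-1 and immediate-early genes 1 rose and 4 fell, among them Fos, Junb and Dusp1, with log2 changes of -0.63, -0.51 and -0.59, and miR499 3 lay below the controls in none of these 3.

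Of 78 genes of cytosolic ribosomal proteins 75 had positive changes without miR499 3, at a median of 0.23, against -0.06 over all tested genes. Of the 78, 19 rose and 0 fell, beside 3.47% and 13.7% of all tested genes, and 26 rose with median-ratio scaling. Their medians were 0.26 and 0.19 in miR499 1 and 2, against -0.17 in miR499 3. Of the 19 rises 4 were shared, beside 63.0% of all called rises. Rpl10a, the one with the smallest p, stood at 305, 266 and 268 RPKM with miR499 and at 224, 216 and 211 RPKM in controls. Of 75 nuclear-encoded respiratory chain genes 5 rose and 6 fell without miR499 3, at a median of 0.11, while 8 rose and 2 fell with median-ratio scaling and 13 rose and 2 fell with the trend in gene length and GC content removed. Yet miR499 3 lay below all 3 controls in 71 of them, at a median of -0.81. Of 13 mitochondrially encoded genes all had positive changes without miR499 3, beside 41.3% of all tested genes. MiR499 3 lay above all 3 controls in 6 of them and below in 6, at a median of -0.01. Their summed level was 35251 RPKM in miR499 3, against 44087 to 46270 RPKM in controls. With the trend in gene length and GC content removed 1 of the 13 rose and 1 fell. The genes mt-Nd6 and mt-Nd2, subunits of complex I, rose in all 3 libraries, beside 2.19% of all tested genes. Of these, mt-Nd2 stood at 1536, 1136 and 1355 RPKM with miR499, against 984, 938 and 1009 RPKM in controls, and neither gene passed with the trend in gene length and GC removed. Of 30 genes of the Myc and ribosome biogenesis list 6 fell and 0 rose, beside 13.7% and 3.47% of all tested genes. The list median was -0.13, and with median-ratio scaling 5 of its genes fell and 1 rose. With the trend in gene length and GC content removed 6 fell and 1 rose, at a median of -0.002. Wdr43, Nop2 and Pes1 were below all controls in miR499 1 and 2 and above them in miR499 3.

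Of 24 genes of the unfolded protein and integrated stress responses 12 fell and 0 rose, beside 13.7% and 3.47% of all tested genes. These shares of all tested genes also stand behind the lists that follow. The median of the 24 was -0.21, against -0.06 over all tested genes, and 5 of the 24 fell with median-ratio scaling. Pdia4, a disulfide isomerase of the endoplasmic reticulum, stood at 53.01, 59.0 and 101 RPKM with miR499, against 93.6, 89.9 and 90.7 RPKM in controls. Hspa5, the chaperone BiP, stood at 152, 171 and 299.9 RPKM with miR499 and at 221, 236 and 230 RPKM in controls. In both, miR499 3 was the highest of the 6 libraries. Of 29 lysosome genes 1 rose and 8 fell, and the rise and 2 of the falls were shared. Over all tested genes 63.0% of called rises and 38.4% of called falls were shared. Of 19 glycolysis genes 1 rose and 4 fell, among them Pfkl, at 9.45, 9.48 and 32.4 RPKM with miR499 and 14.7, 15.0 and 14.0 RPKM in controls. Of 23 cholesterol synthesis genes 1 rose and 4 fell, a share near the 13.7% of all tested genes, and with median-ratio scaling 2 rose and 2 fell. As deposited 3 of the 4 falls were shared, and Msmo1 was among them, at 48.1, 50.1 and 55.0 RPKM with miR499 and 67.1, 62.6 and 68.2 RPKM in controls. Of 16 p53 targets 2 fell, Pmaip1 and Sesn1, and of 12 Bcl2 family genes Bak1 rose and Pmaip1 and Bid fell. These shares are near the 13.7% of all tested genes that fell, and in both lists 0 fell with the trend in gene length and GC content removed.

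Markers of mature and other lineages were read against the 3.47% of all tested genes that rose and the 13.7% that fell. Rises and falls numbered 1 and 2 of 23 for monocytes and macrophages, 0 and 1 of 21 for megakaryocytes and platelets, 1 and 1 of 14 for mast cells and basophils, 0 and 2 of 14 for neutrophil primary granules and 0 and 1 of 4 for eosinophils, where Prg3, a granule protein, fell. With median-ratio scaling the falls of the monocyte and eosinophil lists numbered 0. Among 13 erythroid, 10 dendritic cell and MHC class II, 5 B lymphoid, 4 T and NK lymphoid and 6 stromal and endothelial genes 0 passed. Lyz2, a lysozyme of monocytes and neutrophils, stood at 1751, 2003 and 1867 RPKM with miR499, against 2341, 3022 and 2882 RPKM in controls, and fell by 0.54 ± 0.13 (SE, adjusted p = 0.0257, limma). Mpo, the primary granule peroxidase, stood at 1167, 1195 and 3992 RPKM with miR499 and at 1664, 2051 and 1665 RPKM in controls, low in miR499 1 and 2 and highest in miR499 3. The summed level of the monocyte and macrophage markers was 2969 to 3113 RPKM with miR499, against 3517 to 4280 RPKM in controls, and their part in other changes was not tested.

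**Figure D3:**
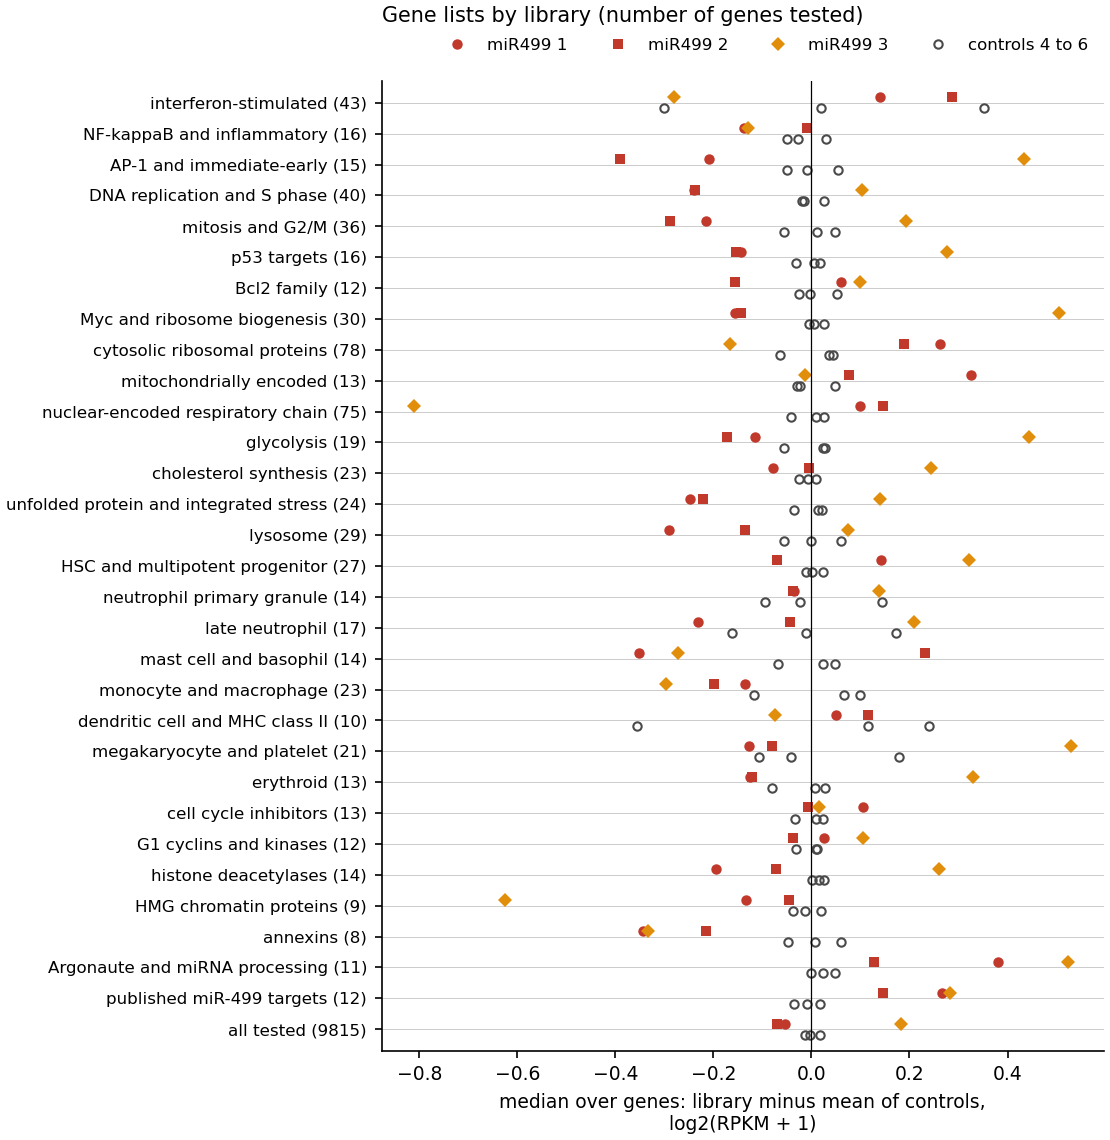
Median over the tested genes of each list (number in brackets, lists of at least 8) of a library minus the mean of controls 4 to 6, in log2(RPKM + 1), for miR499 1 and 2 (red), miR499 3 (orange) and each control (open circles). MiR499 1 and 2 lie together below 0 for mitosis and above 0 for ribosomal proteins, with miR499 3 on the other side of 0 in both, whereas all 3 miR499 libraries lie below 0 for annexins and above 0 for published miR-499 targets.

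Published targets of miR-499 were not lower as a group. Of 15 genes on the list 14 were matched by symbol and 12 were tested, with Sox6 and Foxo4 under the limit. Without miR499 3, 9 had positive changes and 3 negative ones, with a median of 0.16, against -0.06 over all tested genes. Their median gene length was 6092.5 bases, against 3597 bases. Pdcd4, an inhibitor of translation, stood at 101, 112 and 54.9 RPKM with miR499, against 90.9, 78.1 and 79.4 RPKM in controls. It was above every control in miR499 1 and 2, with a rise of 0.36 ± 0.09 (SE, adjusted p = 0.0294, limma), and below every control in miR499 3. Fnip1, which binds folliculin and AMP kinase, stood at 4.19, 3.50 and 3.37 RPKM with miR499 and at 2.50, 2.98 and 2.28 RPKM in controls, and rose in all 3. The calcineurin subunits Ppp3ca and Ppp3cb had changes of 0.14 ± 0.10 and 0.50 ± 0.17 (SE) that did not pass. Cyfip1, Med13, Pacs2, Ptbp3 and Cdkn1a had values of 0.15 to 0.31, also without a pass. The transcriptional repressor Hbp1, whose 3' UTR held none of the 3 motifs in this annotation, stood at 7.27, 7.24 and 12.8 RPKM with miR499 and at 10.1, 10.6 and 10.7 RPKM in controls, and fell in miR499 1 and 2. Ets1 and Rcan1 had -0.25 ± 0.10 and -0.13 ± 0.13 (SE) and did not pass. Of 11 genes of Argonaute proteins and miRNA processing 0 rose and 1 fell, Prkra, beside 3.47% and 13.7% of all tested genes. The list median was 0.23 and the list's median gene length 8120 bases. With median-ratio scaling 2 rose and 0 fell, and with the trend in gene length and GC content removed 0 passed either way.

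Without matching for 3' UTR length, the median change of genes with a seed site was no lower than that of genes without one. Without miR499 3 the median log2 change was -0.02 over 1542 genes with a site, against -0.08 over 7544 genes without one, and 0.01 over the 360 genes with an 8mer. With all 6 libraries the medians were 0.07 with a site and -0.02 without one. Falls were called in 11.5% of genes with a site and in 14.8% of genes without one, and rises in 2.59% and 3.3%. Genes with a site had longer 3' UTRs, with medians of 2433 and 883.5 bases. Without miR499 3, within 5 bins of 3' UTR length, the median with a site minus the median without one ran from -0.02 to 0.01. The bins had near equal gene numbers. With all 6 libraries the medians with a site were -0.13, -0.13, -0.01, 0.03 and 0.13 from the shortest to the longest bin. Those without a site were -0.13, -0.08, 0.01, 0.09 and 0.14, so genes with a site were lower in all bins but the shortest. These differences were not tested. The other arm was looked at in the same way, and 1678 genes with a miR-499-3p site had a median of -0.03, against -0.08 over the 7408 without one.

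**Figure D4:**
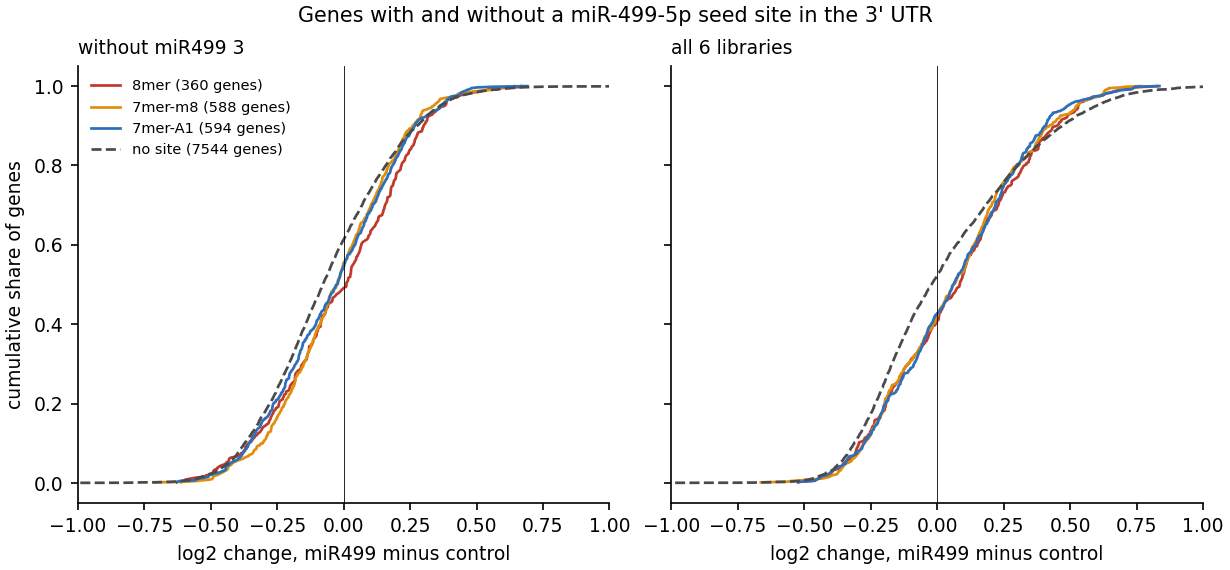
Cumulative share of genes by log2 change (miR499 minus control) without miR499 3 (left) and with all 6 libraries (right), for genes grouped by the longest miR-499-5p site in the 3' UTR (8mer, 7mer-m8, 7mer-A1) and for genes with no site (dashed). In both panels the curves of genes with a site lie to the right of the dashed curve through the middle of the range, at medians of -0.02 against -0.08 on the left and 0.07 against -0.02 on the right. The curves are not matched for 3' UTR length.

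The library miR499 3 was described gene by gene, without a test since it is 1 library. It lay at least 1 log2 unit above the other 5 libraries of its table in 650 genes (6.62%) and at least 1 unit below them in 101 (1.03%). The number of genes in which miR499 3 stands apart was split into 304 above and 322 below with median-ratio scaling. Mfsd13a stood at 30.4 RPKM in miR499 3, against 3.39 to 5.39 RPKM in the other 5 libraries of its table and 24.4 to 30.3 RPKM in all 6 libraries of the miR184 table. Hk1, the hexokinase of most tissues, stood at 19.5 RPKM in miR499 3, against 3.39 to 4.03 RPKM and 24.4 to 26.0 RPKM in the same sets. Fbxw5, Palm, Mgat1 and Fcho1 had the same pattern, nearer to the miR184 table than to their own. Kcnk12 and Akt1, the other two of the 8 named, were high in miR499 3 alone. Among the low genes Sub1, a transcriptional coactivator, stood at 123 RPKM in miR499 3, against 315 to 376 RPKM in its own table and 108 to 119 RPKM in the other. The chemokine Ccl2, the histones Hist1h1b and Hist1h4c and the entry Gm17134 were likewise low in miR499 3 and in the other table. Its values had a mean correlation of 0.943 with its own table and 0.957 with the other, across genes, which are not independent replicates, whereas the other 5 libraries of its table had 0.979 to 0.984 and 0.889 to 0.911.

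The position of miR499 3 varied with gene length. From the shortest to the longest of 5 bins of genes its median difference from controls 4 to 6 was -0.41, 0.02, 0.34, 0.44 and 0.45, while miR499 1 gave -0.07, -0.20, -0.10, 0.02 and 0.19 and miR499 2 gave 0.03, -0.16, -0.16, -0.09 and 0.01. Controls 1 to 3 of the other table ran from -0.57 to -0.49 in the shortest bin and from 0.67 to 0.69 in the longest. With GC content miR499 3 ran from -0.05 in the lowest bin to 0.52 in the highest, while miR499 1 and 2 stayed between -0.09 and -0.02. The median length of cytosolic ribosomal protein genes was 1657 bases and that of nuclear-encoded respiratory chain genes 1495 bases, both below the 3597 bases of all tested genes, and the part of gene length in their low values in miR499 3 was not tested.

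**Figure D5:**
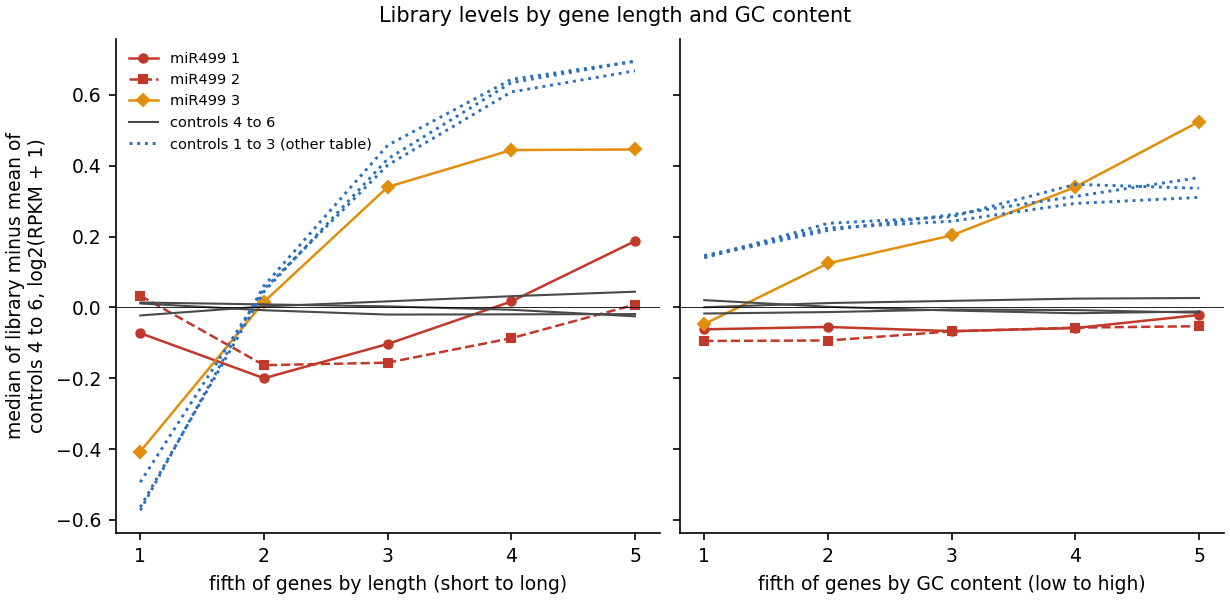
Median over genes of each library minus the mean of controls 4 to 6, in log2(RPKM + 1), in 5 bins of gene length (left) and of GC content (right), for miR499 1 and 2 (red), miR499 3 (orange), controls 4 to 6 (grey) and controls 1 to 3 of the other table (blue, dotted). In the left panel miR499 3 climbs from -0.41 to 0.45 along with controls 1 to 3, while miR499 1 and 2 stay between -0.20 and 0.19.

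The change with miR499 was set against the change with miR184, which has controls of its own, in 9566 genes tested in both tables. With all 12 libraries 0 genes (0.0%) differed at an adjusted p under 0.05 by limma, and 911 had an unadjusted p under 0.05, with no second tool run. Without miR499 3, 832 differed (8.7%), 63 with a higher change (0.659%) and 769 with a lower change (8.04%) under miR499. Leaving out miR184 3 as well gave 1213. The contrast was run on deposited values alone, without median-ratio scaling or removal of the trend in gene length and GC content. Within the miR499 table, the 341 higher and 1340 lower calls became 586 and 644 with median-ratio scaling. Whether the excess of lower changes against miR184 depends on scaling was not tested. Hdac2, one of the 5 genes with the smallest p for a lower change, differed by -0.82 ± 0.10 (SE, adjusted p = 0.00941, limma), with changes of -0.71 under miR499 and 0.10 under miR184. Rpn1, of the oligosaccharyltransferase, and Tmed2, of cargo transport from the endoplasmic reticulum, differed by -0.68 ± 0.07 and -0.62 ± 0.08 (SE). Rpn1 stood at 63.0, 63.8 and 127 RPKM with miR499 and 97.1, 100.4 and 98.0 RPKM in controls 4 to 6, beside 142, 139 and 140.4 RPKM with miR184 and 129, 140.2 and 138 RPKM in controls 1 to 3. Of the genes with a higher change, Mapk1ip1l stood at 14.1, 13.05 and 14.3 RPKM with miR499 and 9.88, 9.72 and 9.19 RPKM in controls 4 to 6, beside 21.6, 20.97 and 17.9 RPKM with miR184 and 21.1, 23.0 and 22.2 RPKM in controls 1 to 3. Its difference was 0.59 ± 0.12 (SE, adjusted p = 0.0167, limma). The RNA-binding protein gene Prrc2c differed by 0.76 ± 0.14 (SE), and Cx3cr1, the fractalkine receptor of monocytes, by 0.78 ± 0.15 (SE). Cx3cr1 and Prrc2c stood below every control in miR499 3, at 3.12 and 4.64 RPKM.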

How the data were processed

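RNA of sorted WT mouse HSPC came from a PicoPure extraction and entered standard Illumina library preparation, per the labels' protocols. The authors deposited RPKM values per gene, per the file headers, in 1 table per miRNA. Reads were placed on mm10, per the submitters' processing notes. For the aligner, the counter, the gene models and the strand setting, a name is not given in the sources used here. Overlapping, antisense or near-identical genes may share reads. Steps between low values gave each library's total, and 100% of nonzero values then equalled whole reads to within 0.01 reads. 0 columns of per-sample values were left unused. Replicates differed by more than counting noise (chi-square per degree of freedom 12.02 to 571), so none was merged.

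MiR499 1 to 3 were tested against controls 4 to 6 by limma 3.58.1 (R 4.3.3) with an intensity trend on log2(RPKM + 1), which understates the change of low genes, with Benjamini-Hochberg adjustment over 9815 genes. The same genes were tested without miR499 3. The difference from miR184 was a contrast of the changes within each table. On simulated data, 200 genes changed 2-fold were recovered at 46% with all 6 libraries and 98.5% without miR499 3. In these fits 1 and 15 unchanged genes were called. Both counts describe the simulated data alone. In the real libraries the median difference from controls varied with gene length, so the counts give no rate of false calls there. Positions and 3' UTRs came from GENCODE M21 on GRCm38 and the miRNA from RefSeq. Members and the 34 gene lists were chosen with earlier results of these data known. Genes named are the 12 largest shared changes per direction at 5 RPKM or more, up to 3 per list by p, the published targets, 8 per direction by the distance of miR499 3, 5 per direction by the difference from miR184, and Mir499 with its host. Alternatives covered scaling, pseudocount, filter, voom on recovered reads, a replicate block, each library left out, and removal of a spline trend in gene length and GC content, the last chosen after seeing the data. Summaries and plots used matplotlib 3.10.9, pandas 2.3.3 and numpy 2.4.6 under Python 3.11.15. Some genes that the naming rule picks are not reported here.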

Additional observations from a re-analysis of the deposited data

How the results depend on the processing

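With all 6 libraries 0 genes passed under each scaling, pseudocount, filter, voom, length and GC removal and each single library left out except miR499 3, without which 1681 passed, a range of 0 to 1681. A replicate block was set on the description numbers 1 and 4, shared by miR499 1 with control 4 and miR499 2 with control 5. It gave 426 calls with all libraries, 433 without miR499 3 and 162 shared. Control 6 and miR499 3 share a number with no other library, so each formed a block of its own. Both fits thus estimated the change from those pairs alone, at the same median of -0.0588. MiR499 3 did not enter the estimated changes behind the 426. The deviations of these pairs correlated at 0.20 and -0.35, so the numbers are not shown to pair the libraries. Without miR499 3, the 1681 calls became 172 with no filter on low values and 1088 with length and GC removed, and 2 to 3310 with a further library left out. The 729 shared changes became 70, 427 and 0 to 2122 under the same settings. The difference from miR184 gave 0 calls, 832 without miR499 3 and 1213 also without miR184 3. The count of genes in which miR499 3 stands apart, 751, became 1169 and 230 with pseudocounts of 0.1 and 5 and 418 at a filter of 5 RPKM. The median log2 change of genes with a miR-499-5p site minus that of genes without, 0.0890 with all 6 libraries, was 0.0296 with length and GC removed and 0.0197 when miR499 3 was left out too. With all 6 libraries 6 of the named genes that pass without miR499 3 changed sign: Mcm6 (0.0175), Calr (0.0418), Ltb4r1 (0.14), Cx3cr1 (-0.0468), Gm17134 (-0.11) and Gm13166 (-0.15). Over the named genes and settings 1587 values kept direction and call, 433 lost the call, 50 gained it and 6 reversed. The sign of a list's median changed in 11 of 34 lists with all 6 libraries and in 3 with median-ratio scaling. The causes were not tested. With 3 libraries a group, 1 of them apart, the median interval was ± 0.45 log2 units.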

Other observations

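MiR499 3 was set against the other 11 libraries of the series. It lay at least 1 log2(RPKM + 1) unit above every other library in 69 tested genes and below every other library in 1, Ly6d, at 4.15 RPKM against 12.01 to 35.5 RPKM. The same count was 0 to 3 above in each of the other 11 libraries, and 36 below in miR184 3. Akt1, a kinase of growth factor signalling on chromosome 12, stood at 51.5 RPKM in miR499 3, against 8.46 to 12.6 RPKM elsewhere. Ctbp1, a transcriptional corepressor, stood at 30.3 RPKM, against 4.38 to 7.77 RPKM, and the potassium channel gene Kcnk12 at 19.5 RPKM, against 0.385 to 3.18 RPKM. Hbb-bs, an adult beta globin, stood at 13.5 RPKM, against 0 to 0.786 RPKM. It reached the limit of 1 RPKM for testing through miR499 3 alone. These genes were ranked by their distance and named after their values were seen.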
